A study of Gallus gallus with 6 samples.

Results

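Long non-coding RNAs (lncRNAs) are transcripts that resemble messenger RNAs in length and are often spliced, but carry no recognised protein-coding frame. Some act at the chromatin of the genes beside them, others serve as precursors of small nucleolar RNAs or microRNAs, and for most no function is known. The deposited table lists 5504 genes with the biotype lncRNA among 24356 genes. Described here are the 271 of them with a mean raw count of at least 30 over the 6 libraries, a set chosen by its level over both groups together. A gene can thus enter through the group in which it is higher. Any count at all was present for 2352 lncRNA genes. The members just inside the limit were ENSGALG00000052383 and ENSGALG00000055087, each with a mean count of 30, and ENSGALG00000037747 with 30.2. The lncRNA genes just outside were ENSGALG00000048748 and ENSGALG00000051241, with 29.5 each, and ENSGALG00000048880 with 29.3. All 271 members passed the filter on low counts and were tested.

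The libraries came from lens explants of chicken (Gallus gallus), cultured after an operation modelled on cataract surgery, in which lens cells remain on the capsule and can turn into contractile, matrix-forming cells. One group of 3 libraries received GSK-J4, a drug that enters cells and blocks the demethylases acting on lysine 27 of histone H3. The other group of 3 received the vehicle DMSO. Both were treated daily from day 1 to day 3 after the injury, in medium with 10% fetal bovine serum. The sources used here do not give strain, age, sex or how many animals each library represents. As separate animals are not stated, p-values speak for the spread among these libraries alone, which may be partly technical. The design text calls the assay mRNA sequencing, and lncRNAs without a poly(A) tail may be missed if the RNA was selected by its tail.

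Totals were 14862268 to 22541756 counts per library. Of 11 lens markers, 9 were found in the table and tested, and their summed level was 76997 to 92585 FPKM (fragments per kilobase of gene length, scaled to library size) with GSK-J4 and 61453 to 79020 FPKM with DMSO. The 4 leukocyte markers, of which 3 were found, summed to 0.538 to 1.84 FPKM with GSK-J4 and 0.869 to 3.13 FPKM with DMSO. Of 4 red blood cell markers, 3 were found, and they summed to 0 to 0.114 FPKM with GSK-J4 and 0 to 0.607 FPKM with DMSO. Among them, the haemoglobin genes HBBA and HBZ were at 0 counts in all libraries. The 4 endothelial markers summed to 5.44 to 8.23 FPKM with GSK-J4 and 4.58 to 7.33 FPKM with DMSO, with CDH5 at 0. The part of such cells in the results was not tested, and in whole explants fewer cells of a type and less RNA per cell cannot be told apart. Genes of chromosome W, which hens alone carry, also differed between libraries: the summed CPM (counts scaled to library size with TMM factors) of 124 such genes was 349, 762 and 15.6 in GSK-J4 replicates 1, 2 and 3, and 390.1, 937 and 909 in DMSO replicates 1, 2 and 3.

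None of the 271 lncRNA genes has a symbol in the table, and 5 have an entry of the NCBI gene database in their description, each as an uncharacterised locus. None matched a list of 47 lncRNAs known from other vertebrates, of which the table names 0 by symbol. Members are therefore given by identifier, by position in the coordinates of the deposited table (whose genome build the sources used here do not give) and by the nearest gene with the biotype protein_coding. No sequence of these genes was used here. They lay on many chromosomes, with 124 on chromosomes 1 to 6, 12 on Z, 0 on W and 6 on unplaced sequences, and 139 of 271 were annotated on the plus strand.

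The lncRNA genes were shorter and lower in level than protein-coding genes of the same minimum count. Their median length in the table was 1667 bases, ranging over 192 to 8731 bases, against a median of 2510 bases for 10754 protein-coding genes with a mean count of at least 30. The annotated span on the chromosome was a median of 3.00 times the length for lncRNA genes and 5.66 times for the protein-coding genes. For 1 member the span equalled the length, as it does for a gene without introns. Median level was 3.87 FPKM for the lncRNA genes and 10.9 FPKM for the protein-coding genes. Of the members, 4 exceeded 100 FPKM, 49 had 10 to 100 FPKM, 193 had 1 to 10 FPKM and 25 were under 1 FPKM. Since the rule was set on counts, which grow with length, short members had to reach a higher FPKM to enter, and the lower edge of the plot of level against length follows from that.

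**Figure D1:**
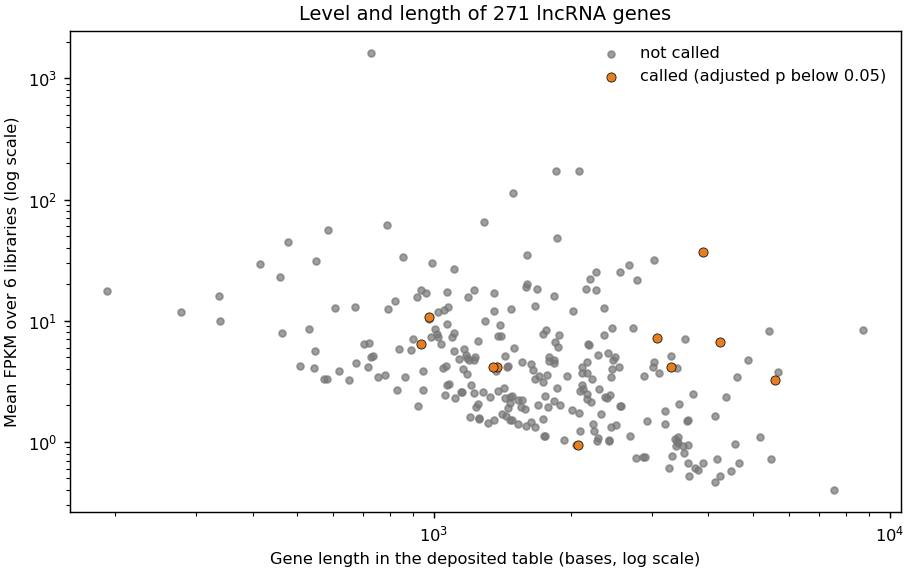
Mean FPKM over the 6 libraries (log scale) against gene length in bases (log scale) for the 271 lncRNA genes, with the 10 genes called between GSK-J4 and DMSO in orange and the 261 others in grey. A single gene stands at 1617 FPKM, and the called genes lie between 0.938 and 36.9 FPKM.

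Together the 271 genes held 0.449% ± 0.0194 of all counts with GSK-J4 and 0.479% ± 0.0143 with DMSO (SD, n = 3 each). A single gene on chromosome 6 accounted for 22.5% ± 1.16 of these counts with GSK-J4 and 24.5% ± 2.43 with DMSO (SD, n = 3 each). It is ENSGALG00000048488, at 3358158 to 3361503 on the plus strand and 728 bases long, 2.71 kb from GLUD2, the gene for a glutamate dehydrogenase that lies on the opposite strand. Its level was 1571, 1653 and 1426 FPKM in the GSK-J4 libraries, against 1740.5, 1898 and 1416 FPKM in the DMSO libraries. The groups overlapped, and the lncRNA did not pass the test (log2 fold change -0.13, SE 0.13).

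Next in order of level were ENSGALG00000033282 on chromosome 6, with a mean of 173 FPKM, and ENSGALG00000053676 on chromosome 25, with 171 FPKM. They did not differ from each other beyond their spread: the first ranged over 179 to 226 FPKM with GSK-J4 and 119 to 209.5 FPKM with DMSO, and the second over 170 to 188 FPKM with GSK-J4 and 147 to 172 FPKM with DMSO. Their nearest genes are GLRX3, which encodes a glutaredoxin, at 10.2 kb, and CADM3, which encodes a cell adhesion molecule, at 0.759 kb. ENSGALG00000031338 on chromosome 4 had 112 FPKM, 9.85 kb from SOHO-1, a homeobox gene. The other 6 of the 10 highest had 36.9 to 65.4 FPKM, and their nearest genes were TEF, DRAP1, ENSGALG00000047954, TTYH3, WDR74 and KIAA2026. Of these 10 genes, the last, ENSGALG00000046481, was called between the groups.

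Among the lncRNA genes, 10 hold an annotated small RNA gene on their own strand. Small nucleolar RNAs, which guide the modification of ribosomal and other RNAs, are cut from introns of such host transcripts. Among 6 hosts of small nucleolar RNAs, ENSGALG00000047410 on chromosome 33 holds SNORD22 and had the highest level, 44.4 FPKM. It had 17.5, 15.5 and 16.1 CPM with GSK-J4, against 26.5, 19.9 and 22.6 CPM with DMSO, ranges that do not overlap, but it was not called (log2 fold change -0.49, SE 0.15, adjusted p = 0.101 in edgeR). ENSGALG00000052055, with 2 copies of SNORD50, had 18.2 FPKM, and ENSGALG00000053249, with SNORD49 and SNORD65, had 6.44 FPKM.

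The 4 hosts of microRNAs included ENSGALG00000006584 on chromosome 24 with mir-125b-1, at 17.0 FPKM, and ENSGALG00000040001 on chromosome 1 with mir-125b-2, mir-99a and let-7c, at 2.11 FPKM. Their log2 fold changes were -0.10 (SE 0.18) and 0.36 (SE 0.27). Largest among the 10 hosts were the changes of ENSGALG00000054143, which holds an SNORA73 gene (-0.71, SE 0.33), and ENSGALG00000054594, which holds mir-135a-3 (-0.68, SE 0.29). None of the 10 hosts was called in edgeR. With 3.69% of members and 5.04% of all genes tested called, 0 among 10 genes is near the background. ENSGALG00000045111 on chromosome Z holds mir-204-1 on the opposite strand, inside TRPM3, at a log2 fold change of 0.55 (adjusted p = 0.235 in edgeR). This lncRNA had 9.45, 8.26 and 14.9 CPM with GSK-J4, against 7.91, 7.12 and 7.17 CPM with DMSO. Its highest value was in GSK-J4 replicate 3, the library with the lowest chromosome W sum, whose part was not tested.

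The question of the comparison was which of these genes respond to GSK-J4. Of the 271, 10 were called at an adjusted p below 0.05 in edgeR's quasi-likelihood test, adjusted over all 12583 genes tested. That is 3.69% of the members, against 5.04% of all genes tested and 5.34% of protein-coding genes with a mean count of at least 30. Higher with GSK-J4 were 3 members (1.11%), against 1.05% of all genes, and lower were 7 (2.58%), against 3.99%. The members were thus called at a share near the background. Among the 7 called lower, ENSGALG00000051410 and ENSGALG00000030322 reached the limit on counts through their DMSO libraries alone. An unadjusted p below 0.05 was found for 14.8% of members and 19.1% of all genes. CPM ranges that do not overlap between the groups were found for 45 members (16.6%), against 24.3% of all genes tested. The median size of the log2 fold change, without its sign, was 0.28 for members and 0.20 for all genes. Members were noisier, with a median coefficient of variation between libraries of a group of 21.4%, against 14.2% for all genes tested. They also had fewer counts, with a median of 89.2, against 336 for all genes tested. Neither the noise nor the size of change was compared at matched counts. The median log2 fold change was 0.08 for members, with 163 of 271 above 0 (60.1%), against 0.01 and 52.2% for all genes. Scaled to library totals instead of TMM factors, the medians were -0.01 for members and -0.08 for all genes, and with upper-quartile factors 0.05 and -0.02. Without GSK-J4 replicate 2 or without GSK-J4 replicate 3, 4 members were called, and without DMSO replicate 3, 6 were. The shares of all genes called in those fits are not given here.

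**Figure D2:**
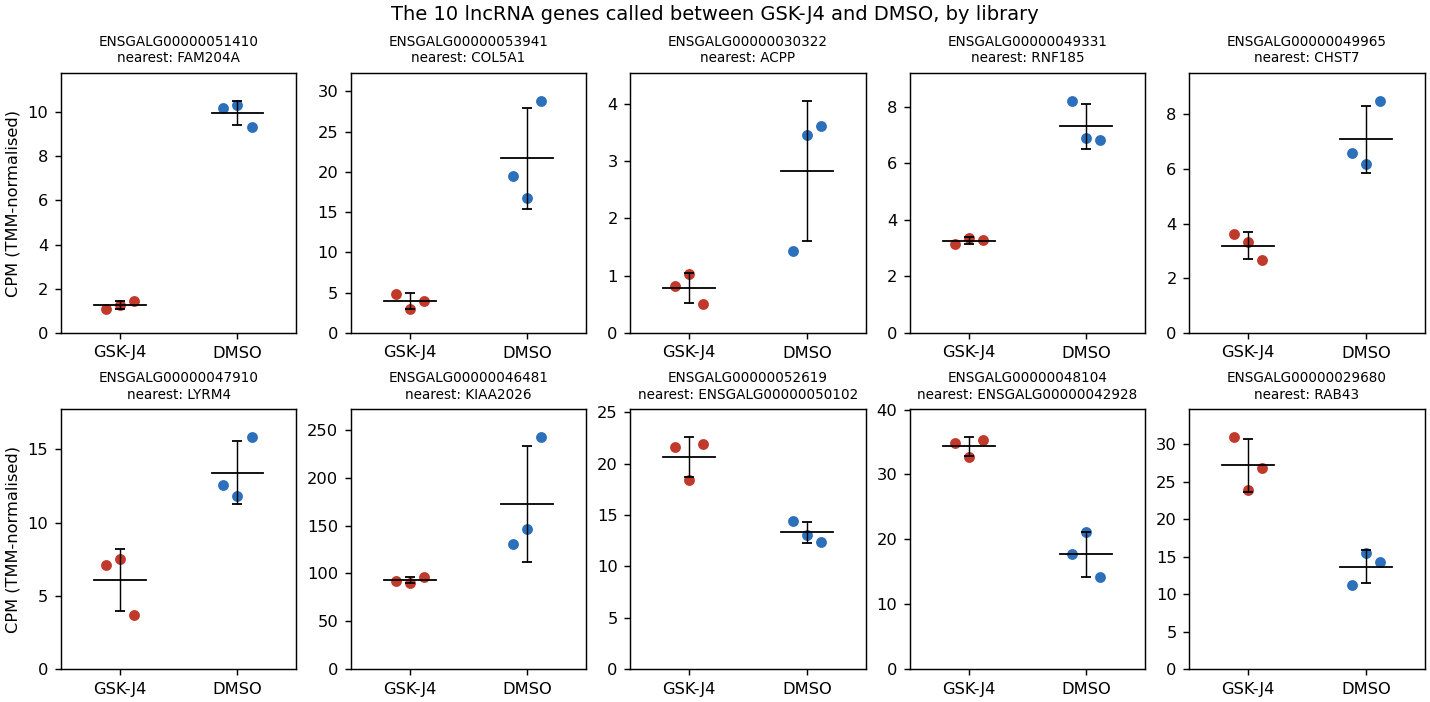
CPM in each library for the 10 lncRNA genes called between the groups, one panel per gene, with GSK-J4 libraries in red on the left and DMSO libraries in blue on the right, replicates 1 to 3 side by side, and a black line and bar for the mean and SD of 3 libraries. The groups do not overlap in any of the 10 panels, and 3 genes on the lower right are higher with GSK-J4.

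The strongest fall was that of ENSGALG00000051410, on the minus strand of chromosome 6 at 30492420 to 30576214, a gene of 935 bases spread over a much longer span. It had 1.06, 1.26 and 1.43 CPM in the GSK-J4 libraries, against 10.2, 10.3 and 9.33 CPM in the DMSO libraries. The 3 GSK-J4 values lie close together and far below the 3 DMSO values. The gene reached the limit on counts through the DMSO libraries alone. The lncRNA was 7.93-fold lower (log2 fold change -2.99, SE 0.24, adjusted p = 0.000102 in edgeR). Neither protein-coding gene beside it was called: FAM204A, 14.2 kb away on the same strand, had a log2 fold change of 0.05 (SE 0.14) and RAB11FIP2, 29.1 kb away on the other side, one of -0.12 (SE 0.13).

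ENSGALG00000053941 was 5.50-fold lower. It lies on the plus strand of chromosome 17 at 7706405 to 7711863, ahead of COL5A1, the gene for a chain of type V collagen, which helps to start collagen fibrils. The lncRNA had 4.88, 2.99 and 4.02 CPM with GSK-J4, against 19.5, 16.8 and 28.8 CPM with DMSO. COL5A1, whose start is 22.4 kb away on the same strand at 7734269, had 168, 102 and 130.5 CPM with GSK-J4, against 347, 301 and 478 CPM with DMSO. In both genes the second GSK-J4 library was the lowest of all and the third DMSO library the highest. Log2 fold changes were -2.46 (SE 0.26) for the lncRNA and -1.49 (SE 0.20) for COL5A1, with adjusted p of 0.00037 and 0.00165 in edgeR. RXRA, on the far side at 54.8 kb, had a log2 fold change of -0.02 (SE 0.23).

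Among the lncRNA genes that rose, ENSGALG00000048104 on chromosome 7 (18822449 to 18844131, plus strand) had 34.9, 32.7 and 35.4 CPM with GSK-J4, against 17.7, 21.1 and 14.2 CPM with DMSO. The log2 fold change was 0.96 (SE 0.16, adjusted p = 0.00598 in edgeR). Its nearest protein-coding gene, ENSGALG00000042928 at 0.586 kb, had a mean of 2.83 counts and was not tested. On its other side, 10.2 kb beyond the 3′ end of LRP2 on the same strand, the nearest tested gene did rise. LRP2 encodes megalin, a large endocytic receptor, and had 71.7, 54.7 and 70.9 CPM with GSK-J4, against 36.9, 37.8 and 24.0 CPM with DMSO (log2 fold change 1.00, SE 0.18, adjusted p = 0.0103 in edgeR). Naming LRP2 followed from its values having been seen.

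ENSGALG00000029680 on chromosome 12 (5489003 to 5492583, plus strand) had 31.0, 23.9 and 26.8 CPM with GSK-J4, against 11.2, 15.5 and 14.3 CPM with DMSO. The gene RAB43, which encodes a small GTPase of membrane traffic, lies 1.35 kb away on the opposite strand, with the 3′ ends of both genes facing each other. RAB43 had 68.1, 66.1 and 60.6 CPM with GSK-J4, against 43.1, 45.7 and 47.8 CPM with DMSO. Both were higher in every GSK-J4 library than in any DMSO library. On the other side of the lncRNA, at 4.77 kb, ENSGALG00000005020 had a log2 fold change of -0.87 (SE 0.30) and was not called (adjusted p = 0.132 in edgeR). Log2 fold changes were 0.99 (SE 0.17) for the lncRNA and 0.51 (SE 0.11) for RAB43, and both were called (adjusted p = 0.00645 and 0.0251 in edgeR). RAB43 was no longer called when any one of the GSK-J4 libraries was left out, with adjusted p in edgeR of 0.0726 without replicate 1, 0.133 without replicate 2 and 0.0685 without replicate 3. The call of the lncRNA, like those of ENSGALG00000051410, ENSGALG00000053941 and ENSGALG00000048104, was kept without any 1 library.

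**Figure D3:**
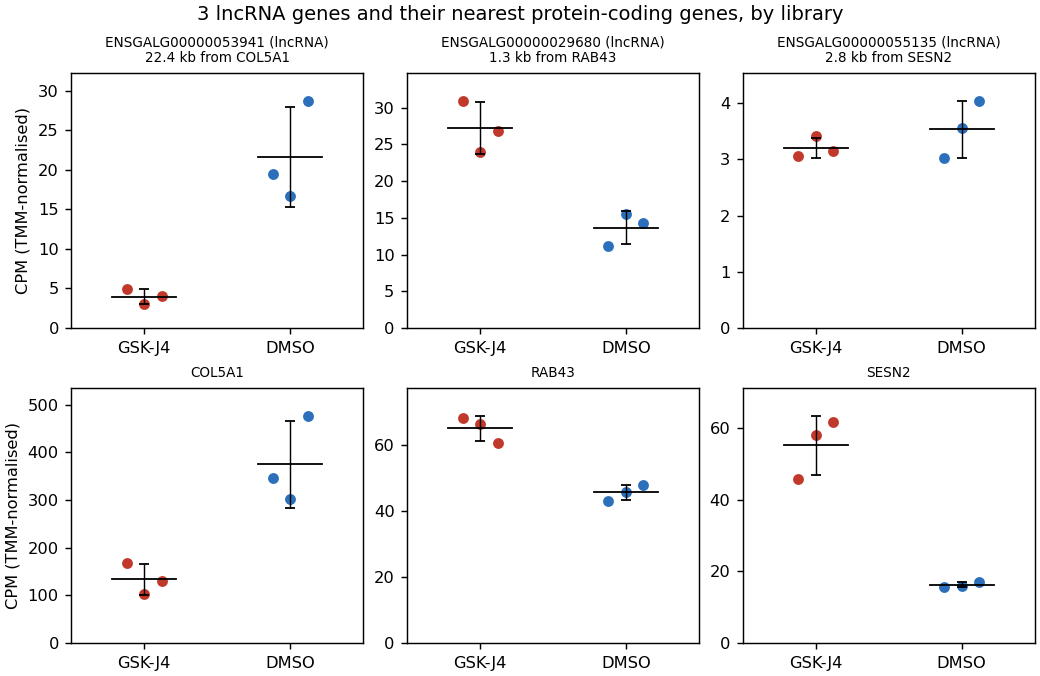
CPM in each library for 3 lncRNA genes (upper row) and their nearest protein-coding genes COL5A1, RAB43 and SESN2 (lower row), with GSK-J4 in red on the left, DMSO in blue on the right and the mean and SD of 3 libraries in black. The first 2 pairs move together, whereas SESN2 is higher with GSK-J4 in all 3 libraries and the lncRNA beside it overlaps between the groups.

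The 6 other called lncRNA genes each lost the call without at least 1 library. ENSGALG00000046481 on chromosome Z (27902995 to 27923931, plus strand) had 92.0, 90.3 and 96.7 CPM with GSK-J4, against 130.4, 146 and 243 CPM with DMSO (log2 fold change -0.90, SE 0.20, adjusted p = 0.0269 in edgeR). The third DMSO library stands above the other two, and the log2 fold change is -0.57 without it. Adjusted p in edgeR was 0.0726, 0.134 and 0.101 without GSK-J4 replicate 1, 2 and 3, which ended the call. KIAA2026, 16.6 kb away, and UHRF2, 21.3 kb away on the other side, were not called.

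ENSGALG00000049331 on chromosome 15 overlaps RNF185, the gene for a ubiquitin ligase, on the opposite strand. The lncRNA had 3.13, 3.36 and 3.30 CPM with GSK-J4, against 8.19, 6.89 and 6.80 CPM with DMSO (log2 fold change -1.16, SE 0.22), while RNF185 stood at 0.04 (SE 0.10). Leaving out GSK-J4 replicate 2 (adjusted p = 0.0732 in edgeR) or 3 (0.0595) ended its call. ENSGALG00000049965 on chromosome 1, 2.02 kb from the sulfotransferase gene CHST7, had 3.63, 3.32 and 2.65 CPM with GSK-J4, against 6.60, 6.19 and 8.49 CPM with DMSO. Its log2 fold change was -1.14 (SE 0.24) and that of CHST7, which was not called, -0.89 (SE 0.29). The lncRNA call was lost without GSK-J4 replicate 2 (0.109) or 3 (0.114) or DMSO replicate 3 (0.0878).

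ENSGALG00000047910 on chromosome 2 lies 2.95 kb beyond LYRM4, a gene for a factor of iron-sulfur cluster assembly. It had 7.07, 7.52 and 3.66 CPM with GSK-J4, against 12.6, 11.8 and 15.8 CPM with DMSO (log2 fold change -1.13, SE 0.26), and LYRM4 stood at -0.07. Adjusted p in edgeR was 0.0325, and 0.0540 to 0.120 without DMSO replicate 3 or any one of the GSK-J4 libraries. ENSGALG00000030322 on chromosome 2 was the lowest of the 10, with 0.813, 1.03 and 0.502 CPM with GSK-J4, against 1.42, 3.45 and 3.61 CPM with DMSO (log2 fold change -1.82, SE 0.46, adjusted p = 0.0486 in edgeR). It reached the limit on counts through the DMSO libraries alone. ACPP, an acid phosphatase gene 4.14 kb away, had -1.52 (SE 0.53) and was not called. ENSGALG00000052619 on chromosome 23 was higher, with 21.6, 18.4 and 21.9 CPM with GSK-J4, against 14.5, 13.1 and 12.4 CPM with DMSO (log2 fold change 0.63, SE 0.15, adjusted p = 0.0352 in edgeR), and its nearest protein-coding gene had 0 counts. Of the 10 called genes, these 2 had the order of libraries nearest to that of the chromosome W sum or its reverse. Spearman's rho was 0.89 for ENSGALG00000030322 and -0.89 for ENSGALG00000052619. The W sum itself went partly with treatment. It was lowest in GSK-J4 replicates 3 and 1 (15.6 and 349 CPM) and highest in DMSO replicates 2 and 3 (937 and 909 CPM). For a gene whose groups do not overlap, the sign of rho is thus fixed by its direction of change. The part of the W sum in both results was not tested and cannot be told apart from treatment by these orders. The calls of ENSGALG00000030322 and ENSGALG00000052619 were each lost in 5 of the 6 fits that left out a library, all but the one without DMSO replicate 1. Without GSK-J4 replicate 3, adjusted p in edgeR was 0.176 for ENSGALG00000030322 and 0.156 for ENSGALG00000052619.

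Of the 271 lncRNA genes, 2 lie on a sequence without a protein-coding gene, and for 30 the nearest one was not tested, with 0 counts for 15 of them. This left 239 pairs to compare, with 232 distinct neighbours. Distances were short: 32 members overlapped their nearest gene, 76 more lay within 1 kb, 188 in all within 5 kb, and 20 were over 50 kb away. All 32 overlaps were on opposite strands. The sources used here do not say whether counting used the strand, and without it reads of an overlapping pair cannot be told apart. By orientation, 61 members lay on the same strand beyond the 3′ end of their neighbour and 46 ahead of its 5′ end. The 5′ ends of both genes faced each other for 70, and the 3′ ends for 60. Over 254 pairs with a neighbour above 0, Spearman's rho between the mean FPKM of lncRNA and neighbour was 0.19, and the lncRNA was the higher of the pair in 72.

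The direction of change was the same in lncRNA and neighbour for 154 of 239 pairs (64.4%). Protein-coding genes with a mean count of at least 30 and their own nearest protein-coding gene had the same direction in 4794 of 8890 pairs (53.9%), in which 2 genes nearest to each other enter from both sides. Across pairs, Spearman's rho between log2 fold changes was 0.33 for the lncRNA genes and 0.13 for the protein-coding genes. Pairs are no independent replicates, since all rest on the same 6 libraries, and these values are given as a description without a test. Of the 239 pairs, 91 had both genes above 0 and 63 both below, while 56 had the lncRNA above 0 and the neighbour below, and 29 the reverse. A positive log2 fold change was found for 61.5% of the lncRNA genes in these pairs and for 50.2% of their neighbours.

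**Figure D4:**
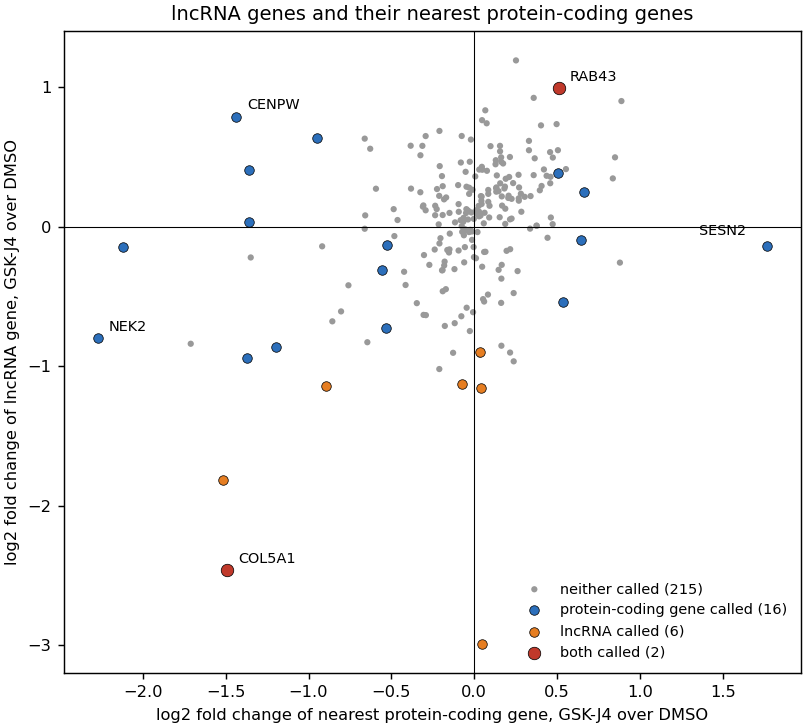
Log2 fold change of each lncRNA gene, GSK-J4 over DMSO, against that of its nearest protein-coding gene for 239 pairs, coloured by which of both was called. The pairs of COL5A1 and RAB43 are called in both genes, 16 pairs in the neighbour alone and 6 pairs in the lncRNA gene alone.

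The share was higher in pairs with more counts. For the 108 pairs whose lncRNA had a mean count of at least 100, the share was 74.1% and rho 0.59, against 53.9% and 0.12 for 7657 pairs of protein-coding genes of that count. For the 131 pairs with a lncRNA between 30 and 100 counts, the share was 56.5% and rho 0.15, against 53.9% and 0.16 for 1233 pairs of protein-coding genes. By distance, the share was 67.9% of 28 overlapping pairs, 66.2% of 71 pairs up to 1 kb, 68.8% of 77 pairs at 1 to 5 kb, 58.0% of 50 pairs at 5 to 50 kb and 46.2% of 13 pairs over 50 kb. For protein-coding genes it lay between 51.6% and 54.6% in the same classes. By orientation, the share was 68.6% of 51 pairs with facing 3′ ends, 66.7% of 39 pairs with the lncRNA ahead of the 5′ end, 65.0% of 60 pairs with it beyond the 3′ end and 57.4% of 61 pairs with facing 5′ ends. For protein-coding genes it lay between 52.8% and 55.1% in the same orientations. These differences between classes were not tested. With the protein-coding gene on the other side of the lncRNA, which was added after the values were seen, the share was 60.8% of 189 pairs and rho 0.17. For protein-coding genes, the gene on the other side gave 52.8% of 6675 pairs and rho 0.11. Genes overlapping their nearest gene were left out of both.

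**Figure D5:**
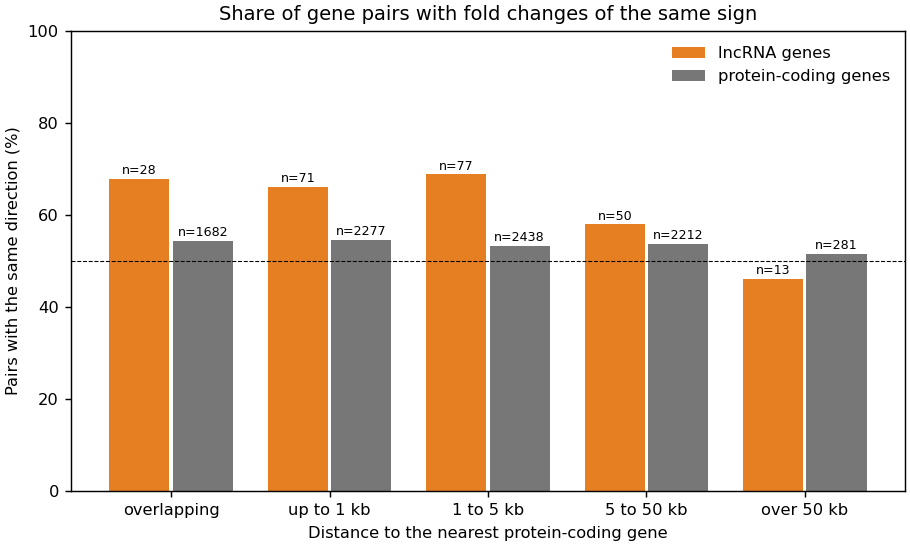
Share of pairs (%) in which both genes changed in the same direction, by distance to the nearest protein-coding gene, for lncRNA genes in orange and protein-coding genes in grey, with the number of pairs above each bar and a dashed line at 50%. The lncRNA bars lie at 66.2% to 68.8% up to 5 kb and at 46.2% over 50 kb, where there are 13 pairs.

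The neighbour was called in 18 pairs, for 17 distinct genes or 7.33% of the distinct neighbours tested. The share was 5.04% of all genes tested and 5.34% of protein-coding genes with a mean count of at least 30. The neighbours had no such limit on counts, so these shares rest on unlike sets. In the 18 pairs, the lncRNA had the same sign in 11 and the opposite sign in 7. Both genes were called in 2 pairs, those of COL5A1 and RAB43, and both had the same direction. Among the 8890 pairs of protein-coding genes, both were called in 33, of which 27 had the same direction and 6 opposite ones. For the lncRNA genes this count was 1 without GSK-J4 replicate 1, 2 or 3 and 5 without DMSO replicate 2. Among the 8 called lncRNA genes with a tested neighbour, 5 shared its sign. Of the 17 called neighbours, 6 were called without any 1 library: COL5A1, HELLS, NEK2, CENPW, SESN2 and KROX20.

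The pairs of SESN2, KROX20, NEK2, CENPW, HELLS, NUAK1 and ARC were chosen after their values were seen, and the difference between the change of a lncRNA and that of its neighbour was not tested. SESN2, a stress-induced brake on growth signalling, had 45.9, 58.3 and 61.7 CPM with GSK-J4, against 15.6, 16.1 and 17.0 CPM with DMSO. ENSGALG00000055135, which lies 2.81 kb beyond its 3′ end on the same strand, had 3.07, 3.41 and 3.16 CPM with GSK-J4, against 3.02, 3.56 and 4.03 CPM with DMSO. Log2 fold changes were 1.77 (SE 0.14) for SESN2, which rose, and -0.14 (SE 0.26) for the lncRNA, whose groups overlap.

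KROX20, an immediate early zinc finger gene also known as EGR2, fell with GSK-J4 (log2 fold change -1.36, SE 0.21) and is nearest to 2 lncRNA genes on its own strand. ENSGALG00000050884, 0.848 kb beyond its 3′ end, was more abundant than KROX20 in counts, with 38.8, 40.2 and 35.4 CPM with GSK-J4, against 43.4, 34.9 and 33.5 CPM with DMSO. Its log2 fold change was 0.03 (SE 0.14), and that of ENSGALG00000047676, 4.87 kb away, was 0.40 (SE 0.33). Neither was called, whereas KROX20 had 11.6, 8.03 and 9.32 CPM with GSK-J4, against 26.9, 18.0 and 29.0 CPM with DMSO.

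NEK2, CENPW and HELLS fell, and the lncRNA genes nearest to them were not called. NEK2, a kinase of the centrosome, had a log2 fold change of -2.27 (SE 0.26), and ENSGALG00000054330, 2.57 kb away with facing 5′ ends, one of -0.80 (SE 0.31). That lncRNA had 1.75, 1.73 and 2.58 CPM with GSK-J4, against 2.96, 3.33 and 4.21 CPM with DMSO, which do not overlap (adjusted p = 0.183 in edgeR). CENPW, a kinetochore gene, had -1.44 (SE 0.20), and ENSGALG00000051160, 2.41 kb ahead of it, had 0.79 (SE 0.46). HELLS, a chromatin remodeller, had -0.95 (SE 0.17), and ENSGALG00000051380, 0.885 kb ahead of it, had 0.63 (SE 0.40). Among the other called neighbours, NUAK1 (-1.20) and ARC (-1.37) fell beside lncRNA genes at -0.86 and -0.94 that were not called. Both calls were lost without GSK-J4 replicate 2 (adjusted p = 0.0591 for NUAK1 and 0.131 for ARC in edgeR), and that of ARC also without GSK-J4 replicate 1 (0.0804) or 3 (0.126) or DMSO replicate 3 (0.129). GLUD2, beside the most abundant lncRNA, fell (-0.53, SE 0.12), but was called without DMSO replicate 1 only, among the 6 fits that left out a library.

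Neighbours were also counted by lists of genes, in which rose and fell stand for called genes (1.05% and 3.99% of all genes tested). Of all 16779 protein-coding genes, 261 were nearest to a member, so lists this short would hold few or none at that share. None of the 21 tested contractile genes, of which 12 fell and 0 rose, and none of the 30 tested genes of mitosis and replication, of which 28 fell and 0 rose and which do not include NEK2, CENPW or HELLS, was the nearest gene of a member. Among 28 tested matrix genes, 18 fell and 0 rose, and 2 were nearest to a member: COL5A1, as above, and SPARC, the gene for a matrix glycoprotein. SPARC (0.38, adjusted p = 0.101 in edgeR) and ENSGALG00000033148, which overlaps it on the opposite strand (0.01), were not called. Of 21 tested genes of the integrated stress response, 15 rose and 0 fell, and SESN2 and VLDLR were nearest to a member. SESN2 rose, whereas its lncRNA was not called, as above. VLDLR stood near 0 (log2 fold change 0.01, SE 0.15, adjusted p = 0.982 in edgeR) and was not called. Its lncRNA, ENSGALG00000047067, was not called either (-0.23, adjusted p = 0.755 in edgeR). The signs differ in both pairs, but that of VLDLR is within its SE. These lists were chosen with earlier results of these data known.

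Of 26 tested lens and eye genes, 1 rose and 0 fell, and 3 were nearest to 4 members, none of them called. ENSGALG00000048583 overlaps CRYBB1, a beta crystallin gene, on the opposite strand of chromosome 15 and was the most abundant overlapping member at 34.8 FPKM, against 3890 FPKM for CRYBB1. It had 52.0, 62.9 and 56.5 CPM with GSK-J4, against 53.5, 42.2 and 42.6 CPM with DMSO. CRYBB1 had 2969, 6473 and 5389 CPM with GSK-J4, against 2525, 4644 and 3627 CPM with DMSO. Both overlap between the groups. The libraries have the same order in both genes within the GSK-J4 group and a different one within the DMSO group. SIX3, an eye field transcription factor gene, is nearest to ENSGALG00000041015 at 5.04 kb and ENSGALG00000053769 at 35.3 kb, with log2 fold changes of -0.09 for SIX3 and -0.17 and 0.16 for the lncRNA genes. ENSGALG00000048659, 24.1 kb from SOX1, stood at 0.07 and SOX1 at 0.15.

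The next most abundant overlapping members were ENSGALG00000053559 with ANGEL1 (28.7 FPKM), ENSGALG00000048906 with RASSF10 (25.0 FPKM), ENSGALG00000053936 with BID (13.2 FPKM) and ENSGALG00000049291 with CER1 on chromosome Z (7.01 FPKM). Their log2 fold changes were 0.08, 0.20, 0.18 and -0.63, and none was called. ENSGALG00000049291 varied within groups, with 12.3, 13.3 and 28.6 CPM with GSK-J4, against 20.4, 16.5 and 46.8 CPM with DMSO. CER1 also varied, with 18.5, 29.0 and 59.0 CPM with GSK-J4, against 23.2, 29.0 and 77.8 CPM with DMSO (log2 fold change -0.29, SE 0.62). In both genes the last library listed was the highest of its group.

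Across the 6 libraries, 6 of 271 members had a Spearman correlation of 0.94 with the chromosome W sum and 5 had one of -0.94. The share of all genes with such values is not given here, and no conclusion is drawn from these counts. Of all members, ENSGALG00000051419 on chromosome Z, which is among those 6, had the widest range over the libraries, 59.4-fold. It lies 60.6 kb from CDC37L1 and had 2.38, 7.94 and 0.143 CPM in GSK-J4 replicates 1, 2 and 3, against 3.87, 8.53 and 7.23 CPM in DMSO replicates 1, 2 and 3. It was lowest in the library with the lowest W sum, GSK-J4 replicate 3, and next lowest in the first replicate of each group, which have the next lowest W sums. Its log2 fold change was -0.85 and it was not called (adjusted p = 0.672 in edgeR). It was named after its values were seen. Among the 12 members on Z, ENSGALG00000046481 was the called one. After it, ENSGALG00000040221 (13.0 FPKM) and ENSGALG00000049291 had the highest level, and neither was called.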

How the data were processed

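Gene expression was measured by RNA sequencing with 150 bp paired-end reads in 6 libraries of cultured chicken lens, 3 per group, grouped by sample title. The deposited counts are raw, whole numbers for each gene. The deposited FPKM values equal the count over the gene's length and a single factor for each library, which was 0.874 to 0.979 of the summed counts, as checked on the values. StringTie 1.3.3b, DESeq2 1.20.0, featureCounts 1.5.0-p3 and HISAT2 2.0.5 are listed by the submitters' processing notes with no role. Genome build, annotation release and strand setting: not given in the sources used here.

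Genes kept by filterByExpr (12583 of 17951 with any count) were scaled by TMM and tested with edgeR 4.0.16 (robust quasi-likelihood F test, R 4.3.3), GSK-J4 over DMSO, with Benjamini-Hochberg adjustment over all of them and a call below 0.05. Standard errors were derived from the log2 fold change and its F statistic. The biological coefficient of variation was 16.9%. Pairs of libraries within a group differed by a chi-square of 10.3 to 33.1 per degree of freedom, so none was the same library sequenced again. Separate libraries made from the same RNA are not excluded by these values. The script was tested on simulated data.

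The nearest protein_coding gene was taken by gene body on the same sequence, with ties resolved by overlap, and pairs were compared where both genes were tested. Symbols of 1126 genes without one were added from a RefSeq table of assembly GRCg7b, used for names only. Members and gene lists were chosen with earlier results of these data known. Named were the 10 members of highest FPKM, called members, pairs with both genes called, members beside the limit, members on W, 3 on Z and 5 overlapping pairs. Small RNA hosts and the genes on the other side of called members were named outside these rules. Others are marked. Alternatives were other scalings, filters and tests (DESeq2 1.42.0, limma 3.58.1 on counts and on log2(FPKM + 0.1) or log2(FPKM + 1)), a replicate block, each library left out, other count limits and other choices of neighbour.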

Additional observations from a re-analysis of the deposited data

How the results depend on the processing

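The number of called lncRNA genes was 4 to 14 when 1 library was left out and 7 to 14 under the other scalings, filters and tests. Among the 120 members with a mean count of at least 100, 6 were called, against 10 of all 271. That is a share near the 5.04% of all genes tested. The share called among all genes of that count is not given here. The share of all genes called in each alternative fit is not given here. Replicate numbers were not shown to pair the libraries. Deviations of same-numbered libraries correlated at 0.297, 0.17 and 0.0426, and those of libraries with unlike numbers at -0.273 to 0.106. GSK-J4 replicates 1 and 2 correlated best with the DMSO library of their own number, but GSK-J4 replicate 3 with DMSO replicate 2. With the replicate block, 19 of 271 members were called, among them all 10. The share of all genes called in that fit is not given here, so whether the rise is particular to the members cannot be told. The median log2 fold change of members was 0.0626 to 0.124 without 1 library, 0.124 with a mean count of at least 100, 0.0452 with upper-quartile factors and -0.00883 with library totals, where the median of all genes was -0.08. The share of pairs with the same direction was 59.3% to 66.3% without 1 library, lowest without DMSO replicate 3. It was 74.1% with a mean count of at least 100, 58.1% with distance between 5′ ends and 60.8% with the gene on the other side. The rank correlation of log2 fold changes over pairs was 0.242 to 0.387 without 1 library, again lowest without DMSO replicate 3, 0.588 with a mean count of at least 100, 0.377 for pairs within 10 kb, 0.374 on log2(FPKM + 1), 0.234 with distance between 5′ ends and 0.167 with the gene on the other side. Pairs called in both genes numbered 1 to 5 without 1 library, 4 with the DESeq2 test, and 1 within 10 kb, with distance between 5′ ends or with the gene on the other side. The cause of these shifts was not tested. The median SE was 0.27 for members, against 0.18 for all genes, which was not compared at matched counts.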

Other observations

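Below the limit on counts, a further 227 lncRNA genes were tested. Of these, 0 were called higher and 2 lower with GSK-J4 in edgeR (0.881%), against 5.04% of all genes tested called in either direction. An unadjusted p below 0.05 was found for 23 of them (10.1%), against 19.1% of all genes tested. CPM ranges did not overlap between the groups for 42 of them (18.5%), against 24.3% of all genes tested.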
